A study of Mus musculus with 6 samples.

Results

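Ribosome biogenesis was examined across 35 genes, Myc and 34 genes whose products make or process ribosomal RNA, in pancreatic stellate cells (PSCs) at an acidic or a neutral extracellular pH (pHe). The genes were chosen by name for their known roles, with earlier results of these data known. All 35 were present among 15197 genes tested, out of 49671 in the count table. PSCs are the fibroblast-like cells of the pancreatic stroma. They were isolated from the pancreas of C57BL6/J wild-type mice and cultured on plastic in DMEM/Ham F12 with fetal calf serum for 120 h at pHe6.6 (3 libraries, A to C) or at pHe7.4 (3 libraries, A to C). Both groups shared genotype, medium and serum, and the medium pH was set through its sodium bicarbonate content, so that bicarbonate and pHe cannot be told apart. The cells had been enriched by adherence to the dish, without a sort. The libraries are labelled as biological replicates, a term that the study's methods use for mice, but which mouse gave which library is not stated, and p-values measure the spread between these libraries.

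Ribosome production starts in the nucleolus, where RNA polymerase I transcribes ribosomal DNA. Small nucleolar ribonucleoproteins (snoRNPs) modify the transcript, and separate sets of assembly factors cut and fold it into the small and the large ribosomal subunit. Myc, a transcription factor that binds DNA with its partner Max at the E-box CACGTG, is a known activator of many of these genes and of cell growth. In the pancreas, stellate cells that leave their quiescent state proliferate and secrete matrix, both of which require new ribosomes.

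Promoter windows of 300 bases, with 250 bases before the start site, were available from RefSeq (GRCm38.p6) for 28 of the 35 genes. Bop1, Rrs1, Fbl, Npm1, Tbl3, Rrp12 and Myc had no entry. The 28 genes had 30 windows, and 5 of these (16.7%) held the palindrome CACGTG, which reads alike on both strands. It was held by 7.15% of all 32851 windows and 9.68% of the windows of genes tested. Counted by gene, 5 of the 28 genes (17.9%) held it, beside 11.5% of the 11046 genes tested that had a window. The 5 genes were Nop2, Pes1, Wdr43, Ltv1 and Utp20. With the first transcribed base as position 0, the motif began at -60 in Nop2, at 2 in Pes1, at 17 in Wdr43, at 28 in Ltv1 and at 37 in Utp20. Stretches of 150 bases are shown 5′ to 3′ on the plus strand for 3 of them, with the E-box in capitals, and for Nop56, which had the most negative fold change of the 35 genes and no CACGTG in its window. They lie at chr6:125131763-125131912 (Nop2), chr17:71616095-71616244 (Wdr43), chr11:3963855-3964004 (Pes1) and chr2:130274292-130274441 (Nop56), each across a start site of the RefSeq table.
Nop2: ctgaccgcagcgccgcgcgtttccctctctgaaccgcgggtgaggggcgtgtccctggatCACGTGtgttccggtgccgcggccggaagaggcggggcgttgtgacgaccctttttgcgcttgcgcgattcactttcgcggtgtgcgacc
Wdr43: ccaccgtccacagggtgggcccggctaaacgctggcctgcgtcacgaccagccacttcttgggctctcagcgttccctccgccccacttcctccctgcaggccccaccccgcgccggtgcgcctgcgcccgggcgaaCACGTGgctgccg
Pes1: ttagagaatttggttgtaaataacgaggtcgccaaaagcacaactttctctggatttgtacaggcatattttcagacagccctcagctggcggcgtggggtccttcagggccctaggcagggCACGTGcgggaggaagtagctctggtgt
Nop56: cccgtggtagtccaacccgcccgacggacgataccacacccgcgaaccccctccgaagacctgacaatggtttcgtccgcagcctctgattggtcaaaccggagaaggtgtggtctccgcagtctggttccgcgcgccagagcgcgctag
A match of these letters is a description of the window and not a measured binding site. The 5 genes with a match had log2 fold changes at pHe6.6 over pHe7.4 of -0.71 (Nop2), -0.66 (Ltv1), -0.58 (Wdr43), -0.34 (Utp20) and -0.26 (Pes1), and so lay in the upper as well as the lower part of the members' range.

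Totals were 28904761 to 38331877 counts per library, and levels are given as CPM, the count divided by library size with TMM factors. CPM is not scaled to gene length, so levels were compared between libraries and not between genes. The raw count of the 35 genes ran from 493 to 26107 per library. PSC markers were present, with summed CPM of desmin, vimentin and other stellate cell and fibroblast genes at 23304, 25222 and 23262 at pHe6.6 and 32524, 25894 and 29747 at pHe7.4. Of these 10 markers, 5 rose at pHe6.6 (Des, Pdgfra, Pdgfrb, Dcn and Lum), 1 fell (Col1a1, log2 fold change -0.97) and 4 did not pass, with a median log2 fold change of 0.29. Markers of other cell types were also found. Summed CPM of macrophage markers overlapped between the groups, while 3 of 8 rose at pHe6.6 (Adgre1, Cd68 and Itgam), 1 fell (Cd14) and the median log2 fold change was 0.42. The sums of ductal, mesothelial and endothelial markers were lower in every pHe6.6 library than in any at pHe7.4, but Msln and Cftr overlapped. Ductal epithelium markers summed to between 59.4 and 255 CPM at pHe6.6, against between 425 and 591 CPM at pHe7.4. Mesothelial markers summed to between 72.9 and 204 CPM at pHe6.6, against between 316 and 636 CPM at pHe7.4, and endothelial markers had a mean sum of 12.4 ± 6.04 CPM in pHe6.6 libraries, against 44.9 ± 7.01 CPM in those at pHe7.4 (SD, n = 3 each). Acinar markers overlapped. B cell markers summed to 8.91 CPM in pHe6.6 C and to at most 0.177 CPM in the other libraries.

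Ribosome biogenesis genes were lower in PSCs at pHe6.6. Of the 35 genes, 30 fell (85.7%), none rose and 5 did not pass the test (edgeR quasi-likelihood test, adjusted p under 0.05), whereas 25.9% of all genes tested fell and 26.4% rose. The log2 fold changes of the 35 genes, all negative, ran from -1.01 (Nop56) to -0.12 (Rrs1) with a median of -0.49, beside a median of -0.01 over all genes tested, and 21 of the 35 were below the lower quartile of all genes (-0.40). Every pHe6.6 library was below every pHe7.4 library in 30 of the 35 genes (85.7%) and in 31.7% of all genes tested. These were the same 30 genes that fell, and the call and the separation rest on the same libraries. The changes were of moderate size, with 12 genes at a log2 fold change of -0.58 or below. When the test itself required an absolute log2 fold change above 0.58 (glmTreat), 5 genes passed, which were Npm1, Nop56, Dkc1, Bop1 and Ppan. Of all 15197 genes tested, 1067 passed this stricter test as lower and 1266 as higher. These are libraries of bulk cultures, in which fewer cells of a type and less RNA per cell cannot be told apart.

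**Figure D1:**
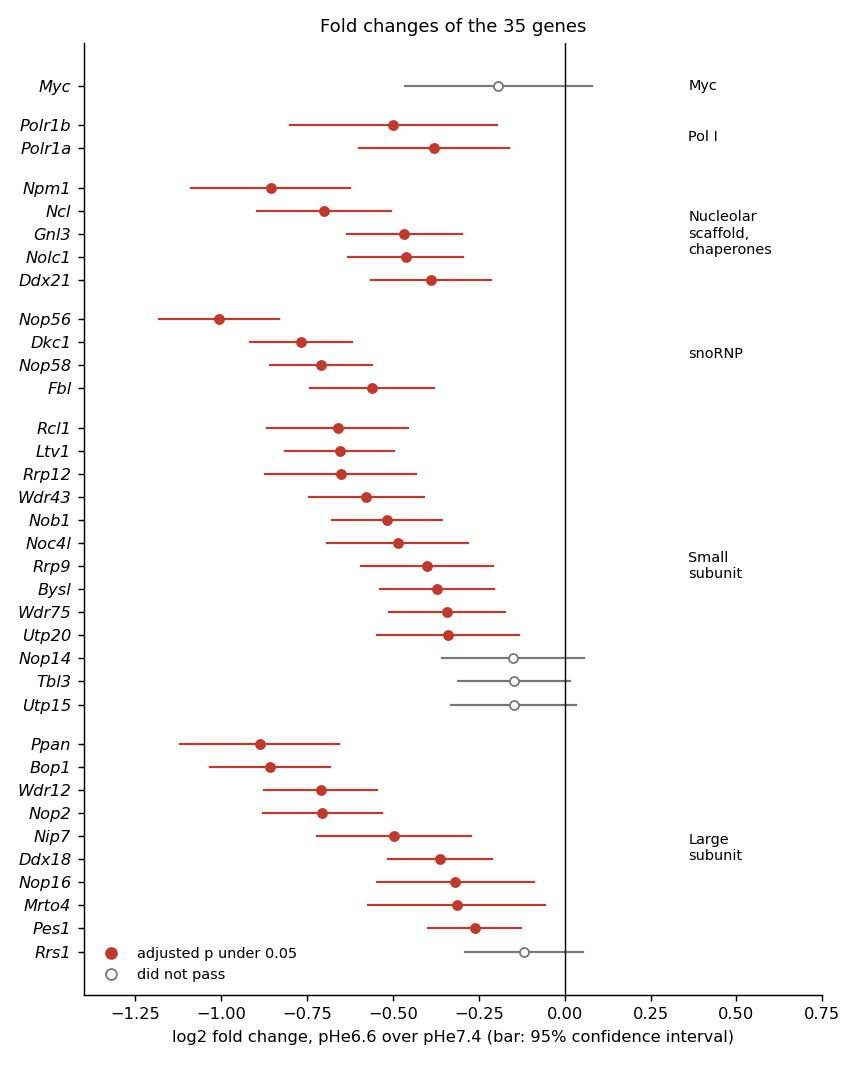
Log2 fold change at pHe6.6 over pHe7.4 (x axis) for each of the 35 genes (rows, grouped by role), with the 95% confidence interval. All 35 points lie left of 0, from -1.01 for Nop56 to -0.12 for Rrs1, and the 30 filled points passed the adjusted threshold.

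The libraries of a group resembled each other. Summed over the 34 genes other than Myc, levels were 1965, 2176 and 2017 CPM at pHe6.6 A, B and C, against 3142, 3095 and 2967 CPM at pHe7.4. The pHe6.6 sum averaged 2053 ± 110 CPM and the pHe7.4 sum 3068 ± 90.7 CPM (SD, n = 3 each), a ratio of 0.669. Relative to the pHe7.4 mean of each gene, the median log2 ratio was -0.53, -0.41 and -0.51 in pHe6.6 A, B and C. Among the pHe6.6 libraries, B held the highest value for 28 of the 35 genes, A for 4 and C for 3. Of the 34 genes, 33 in pHe6.6 A, 32 in B and 32 in C were below the lowest pHe7.4 library.

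**Figure D2:**
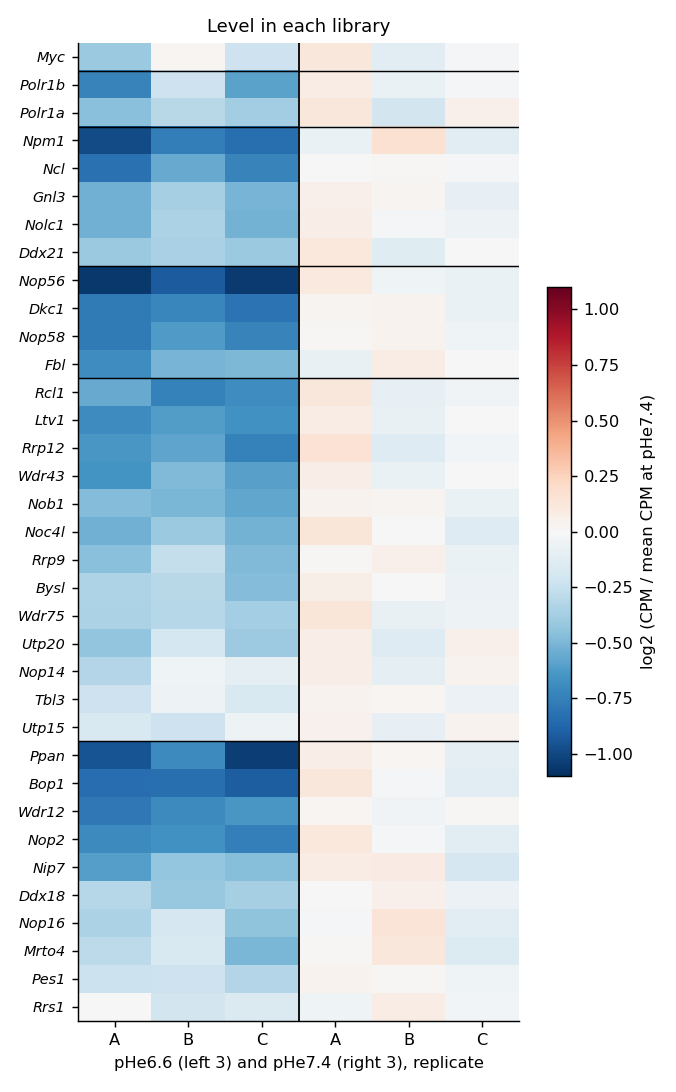
Level of each of the 35 genes (rows, in the same role groups) in the 3 pHe6.6 libraries (left) and the 3 pHe7.4 libraries (right), as log2 of CPM over the pHe7.4 mean of that gene. Nearly all pHe6.6 squares are blue, darkest for Nop56, Npm1, Ppan and Bop1, and pHe6.6 B is the palest of the 3 pHe6.6 columns with a median of -0.41.

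Myc itself was not among the genes that fell. It had 56.9, 76.9 and 64.8 CPM at pHe6.6 A, B and C and 82.3, 69.7 and 75.02 CPM at pHe7.4. The groups overlapped, since pHe6.6 B exceeded pHe7.4 B and C. The log2 fold change was -0.19 ± 0.12 (SE), with a 95% confidence interval of -0.46 to 0.08 and an adjusted p of 0.20 (edgeR), so that a drop of moderate size was neither established nor excluded by the interval. The call rested on 1 library: without pHe6.6 B the log2 fold change was -0.32 and the adjusted p 0.030 (edgeR), and with any other library left out it did not pass.

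In the Myc network, whose members bind Max or Mlx or act on Myc, 5 of 15 genes fell (33.3%) and 4 rose, and the median was 0.04. These counts were close to the shares of all genes tested, of which 25.9% fell and 26.4% rose. Mycn, the Myc paralog best known from neural and embryonic cells, was at 1.49, 2.26 and 1.69 CPM at pHe6.6, against 5.56, 6.00 and 7.21 CPM at pHe7.4. The groups were far apart, with a log2 fold change of -1.78 (adjusted p = 3.5e-04, edgeR). Mycl, the third family member, was at 0.847, 2.46 and 2.44 CPM at pHe6.6 and 3.45, 3.11 and 3.52 CPM at pHe7.4, and did not pass (log2 fold change -0.80, adjusted p = 0.099, edgeR). Max, the shared partner, was slightly lower at 57.3, 55.9 and 56.7 CPM at pHe6.6 against 68.6, 69.0 and 67.5 CPM at pHe7.4 (log2 fold change -0.27, adjusted p = 0.0040, edgeR).

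The Max-binding repressors did not move together. Mxi1 was at 26.0, 29.6 and 28.2 CPM at pHe6.6 and 18.04, 15.9 and 15.4 CPM at pHe7.4, and rose (log2 fold change 0.76, adjusted p = 4.3e-04, edgeR). Mxd1 also rose (0.45, adjusted p = 0.015), while Mxd3, known from dividing cells, fell (-1.22, adjusted p = 0.0015, edgeR). Mxd4, Mnt and Mga had log2 fold changes of 0.04, -0.06 and 0.10 and did not pass. The CPM ratio of Mxi1 to Max within a library was 0.453, 0.529 and 0.497 at pHe6.6 and 0.263, 0.231 and 0.228 at pHe7.4, on a scale that is not corrected for length. This ratio was higher in every pHe6.6 library than in any at pHe7.4. That follows from Mxi1 being higher and Max lower in each of them, and the ratio is a description without a test.

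Of the Mlx partners that sense glucose metabolites, Mlxip rose with a log2 fold change of 0.36 (adjusted p = 0.016, edgeR). Mlxipl, which had a low level, rose, with 1.15, 0.974 and 1.54 CPM at pHe6.6 and 0.604, 0.508 and 0.473 CPM at pHe7.4 (log2 fold change 1.197, adjusted p = 0.0099, edgeR). Zbtb17, through which Myc represses genes, and Fbxw7, which marks Myc protein for degradation, fell by 0.33 and 0.29 on the log2 scale (adjusted p = 0.022 and 0.012, edgeR). Mlx and the coactivator Trrap had log2 fold changes of 0.09 and 0.04 and did not pass.

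**Figure D3:**
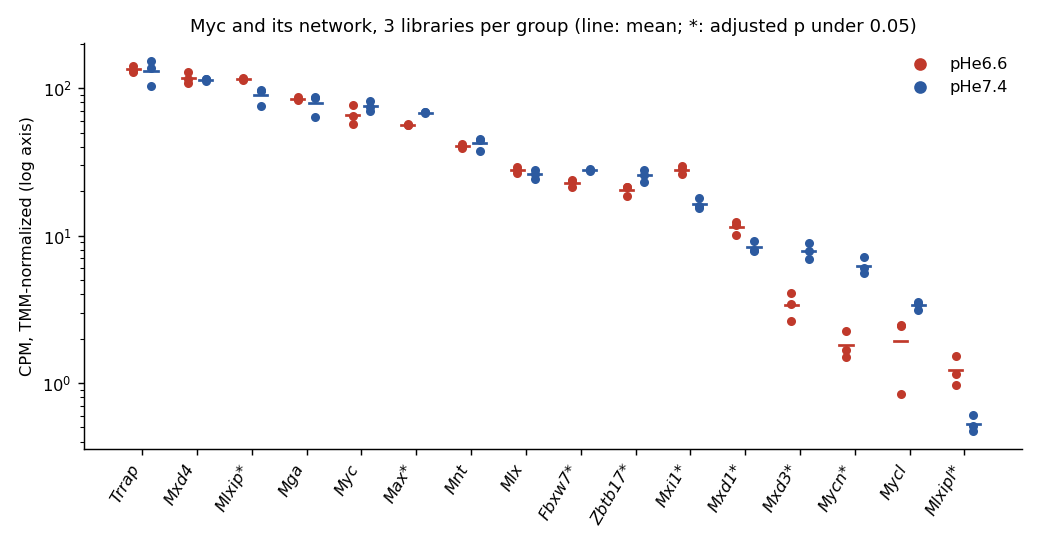
CPM (log axis) of Myc and 15 network genes in each pHe6.6 library (left of each gene, red) and each pHe7.4 library (right, blue), with group means as lines and an asterisk for an adjusted p under 0.05. The points of Myc overlap, Mycn and Mxd3 are lower at pHe6.6, and Mxi1 and Mlxipl are higher at pHe6.6.

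Of 15 genes of metabolism and growth listed as Myc targets, 11 fell (73.3%, beside 25.9% of all genes tested) and 2 rose. Their median log2 fold change was -0.55. Srm, which makes the polyamine spermidine, had the smallest adjusted p of those that fell and was at 61.9, 74.2 and 62.0 CPM at pHe6.6 and 121, 120 and 108 CPM at pHe7.4 (log2 fold change -0.82, adjusted p = 3.0e-04, edgeR). Ldha, the lactate dehydrogenase subunit, moved the other way, with 1439, 1450 and 1305 CPM at pHe6.6 and 886, 903 and 812 CPM at pHe7.4 (log2 fold change 0.69, adjusted p = 4.6e-04, edgeR). The other gene that rose was the cyclin Ccnd2 (0.29), and Tfrc (-0.14) and Prdx3 (0.11) did not pass.

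Both RNA polymerase I subunits among the 35 genes fell. Polr1a and Polr1b encode the large subunits that form the catalytic centre. Polr1a was at 61.3, 68.4 and 64.8 CPM at pHe6.6 and 92.1, 73.4 and 87.8 CPM at pHe7.4 (log2 fold change -0.38, adjusted p = 0.011, edgeR). Polr1b was at 16.7, 23.7 and 18.4 CPM at pHe6.6 and 29.3, 26.4 and 27.5 CPM at pHe7.4 (log2 fold change -0.50, adjusted p = 0.014, edgeR). The groups were separate for both, by a narrow margin between pHe6.6 B and pHe7.4 B. Without pHe6.6 C, Polr1b did not pass (adjusted p = 0.061, edgeR).

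The remaining RNA polymerase I subunits and initiation factors were mixed. Of 13, 5 were lower (38.5%) and 2 higher, beside 25.9% lower and 26.4% higher over all genes tested. Cd3eap, a subunit specific to this polymerase, showed the clearest drop, at 14.2, 15.7 and 11.95 CPM at pHe6.6 and 33.5, 32.6 and 31.0 CPM at pHe7.4 (log2 fold change -1.22, adjusted p = 1.1e-04, edgeR). The change in Cd3eap was more negative than that of any of the 35 genes. The genes that rose were Taf1b, part of the promoter selectivity factor (log2 fold change 0.60, adjusted p = 0.0048, edgeR), and the transcription terminator Ttf1 (0.34, adjusted p = 0.017). Ttf1 was named after its value was seen.

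All 5 genes of the nucleolar scaffold and its chaperones fell, with a median log2 fold change of -0.47. Nucleolin (Ncl), an abundant nucleolar protein that binds nascent ribosomal RNA, was at 369, 444 and 393 CPM at pHe6.6 and 657, 659 and 644 CPM at pHe7.4 (log2 fold change -0.70, adjusted p = 4.3e-04, edgeR). Nucleophosmin (Npm1), the main component of the outer nucleolar layer, was at 241, 282 and 268 CPM at pHe6.6 and 454, 538 and 441 CPM at pHe7.4 (log2 fold change -0.86, adjusted p = 3.7e-04, edgeR). Neither gene had a pHe6.6 library close to the lowest at pHe7.4. Npm1 shares sequence with processed pseudogenes. Of these, Gm14681 held counts equal to 6.75% of those of Npm1 and moved the same way (-0.89).

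Nolc1, a chaperone of snoRNPs, the GTPase Gnl3 (nucleostemin) and the RNA helicase Ddx21 had smaller changes. Nolc1 was at 74.2, 84.2 and 74.9 CPM at pHe6.6 and 113, 105 and 103 CPM at pHe7.4 (log2 fold change -0.46). Gnl3 was at 47.1, 52.9 and 47.7 CPM at pHe6.6 and 70.9, 69.3 and 63.9 CPM at pHe7.4 (-0.47). Ddx21 was at 164, 170 and 164 CPM at pHe6.6 and 236, 199 and 218 CPM at pHe7.4 (-0.39). Their adjusted p ranged from 0.0014 to 0.0038 (edgeR), and no groups overlapped.

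The core proteins of the snoRNPs showed the most negative median of the role groups (-0.74), and all 4 fell. Nop56 was at 41.7, 46.1 and 42.1 CPM at pHe6.6 and 93.9, 84.5 and 82.8 CPM at pHe7.4, with a log2 fold change of -1.01 ± 0.08 (SE, adjusted p = 5.2e-05, edgeR). Its level at pHe6.6 was 0.497 of that at pHe7.4. Nop58, which pairs with Nop56 in the box C/D particles that guide methylation, was at 75.4, 84.2 and 77.9 CPM at pHe6.6 and 130.5, 133 and 125 CPM at pHe7.4 (log2 fold change -0.71, adjusted p = 1.2e-04, edgeR). Fbl (fibrillarin), the methyltransferase of the same particles, was at 32.4, 36.6 and 36.9 CPM at pHe6.6 and 49.2, 55.0 and 52.0 CPM at pHe7.4 (log2 fold change -0.56, adjusted p = 8.1e-04, edgeR).

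The subunits of the box C/D particle thus fell by unequal amounts. The CPM ratio of Nop56 to Fbl within a library was 1.29, 1.26 and 1.14 at pHe6.6 and 1.91, 1.53 and 1.59 at pHe7.4, without overlap. For Nop58 to Fbl it was 2.33, 2.30 and 2.11 at pHe6.6 and 2.65, 2.41 and 2.40 at pHe7.4, again without overlap but by a small margin. These ratios are descriptions without a test.

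Dkc1 (dyskerin), the pseudouridine synthase of the box H/ACA particles and a component of telomerase, was at 31.7, 32.9 and 30.9 CPM at pHe6.6 and 55.4, 55.6 and 51.5 CPM at pHe7.4 (log2 fold change -0.77, adjusted p = 8.4e-05, edgeR). In the list of other snoRNP core and assembly genes, 7 of 12 fell (58.3%, beside 25.9% of all genes tested) and none rose. Gar1, a partner of dyskerin, had the smallest adjusted p, with 18.9, 21.3 and 18.6 CPM at pHe6.6 and 31.4, 31.1 and 31.7 CPM at pHe7.4 (log2 fold change -0.68, adjusted p = 3.2e-04, edgeR). Box H/ACA and box C/D proteins were therefore both among the genes that fell. Of the 35 genes, 7 carry snoRNA genes within them in the GENCODE annotation, 21 snoRNAs in all, and these hosts are Ncl, Gnl3, Nop56, Nop58, Dkc1, Wdr43 and Ppan. Each of the 7 fell, with log2 fold changes from -0.47 to -1.01.

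Among the 13 small subunit factors, 10 fell and 3 did not pass, with a median log2 fold change of -0.40. Ltv1, a chaperone shed late in assembly, was at 26.0, 27.5 and 26.5 CPM at pHe6.6 and 44.4, 39.8 and 41.8 CPM at pHe7.4 (log2 fold change -0.66, adjusted p = 2.2e-04, edgeR). Nob1, the endonuclease that makes the final cut of the small subunit RNA, was at 23.5, 23.1 and 22.0 CPM at pHe6.6 and 33.7, 33.4 and 31.1 CPM at pHe7.4 (-0.52, adjusted p = 6.7e-04, edgeR). Rrp12, which in yeast takes part in export of the subunit, fell by 0.65 on the log2 scale, and Bysl, whose yeast ortholog is needed for late assembly, fell by 0.37. The exons of Bysl overlap those of Ccnd3 on the other strand. The strand setting of the count is not given in the sources used here, and Ccnd3, with 311% of the counts of Bysl, moved in the other direction (0.50).

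The components of the small subunit processome, which binds the nascent transcript, were split. Rcl1, a factor of early cleavage in yeast, was at 19.9, 17.5 and 18.2 CPM at pHe6.6 and 31.9, 27.5 and 28.5 CPM at pHe7.4 (log2 fold change -0.66, adjusted p = 6.9e-04, edgeR). Wdr43 and Wdr75, of the subcomplex that binds the transcript first, fell by 0.58 and 0.34 on the log2 scale, Rrp9, a protein of the U3 particle, by 0.40 and Noc4l by 0.49. Utp20 fell by 0.34 (adjusted p = 0.014, edgeR), but did not pass without pHe6.6 A, pHe6.6 C or pHe7.4 C (adjusted p up to 0.066, edgeR).

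Utp15, Tbl3 and Nop14 of the same processome did not pass, and the groups overlapped for each. Utp15 was at 24.0, 23.1 and 26.0 CPM at pHe6.6 and 27.8, 25.4 and 27.7 CPM at pHe7.4, with a log2 fold change of -0.15 (95% interval -0.33 to 0.03). Tbl3 was at 38.5, 43.4 and 40.0 CPM at pHe6.6 and 46.2, 45.9 and 43.1 CPM at pHe7.4, with a log2 fold change of -0.15 (-0.31 to 0.01). Nop14 was at 39.3, 47.3 and 45.8 CPM at pHe6.6 and 51.4, 45.4 and 50.2 CPM at pHe7.4, with a log2 fold change of -0.15 (-0.36 to 0.06). Nop14 and Noc4l, which form a complex in yeast, were therefore on different sides of the threshold, but the difference between them was not tested. In the list of other small subunit factors, 19 of 41 fell (46.3%, beside 25.9% of all genes tested) and none rose. Pno1, which acts beside Nob1, had the smallest adjusted p, at 34.5, 34.6 and 31.1 CPM at pHe6.6 and 53.4, 55.3 and 52.6 CPM at pHe7.4 (log2 fold change -0.69, adjusted p = 1.7e-04, edgeR).

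Of the 10 large subunit factors, 9 fell, with a median log2 fold change of -0.43. Bop1, Pes1 and Wdr12 form the PeBoW complex, which is required for processing of the large subunit RNA. Bop1 was at 41.2, 41.5 and 39.5 CPM at pHe6.6 and 80.4, 72.8 and 68.2 CPM at pHe7.4 (log2 fold change -0.86, adjusted p = 1.0e-04, edgeR). Wdr12 was at 17.9, 18.97 and 19.8 CPM at pHe6.6 and 31.4, 30.1 and 31.2 CPM at pHe7.4 (-0.71, adjusted p = 1.8e-04, edgeR). Pes1 changed less, with 69.9, 70.0 and 65.9 CPM at pHe6.6 and 84.3, 83.0 and 79.4 CPM at pHe7.4 (-0.26, adjusted p = 0.0072, edgeR). The 3 genes of this complex thus fell by different amounts. The CPM ratio of Bop1 to Pes1 was 0.589, 0.592 and 0.599 at pHe6.6 and 0.954, 0.877 and 0.859 at pHe7.4. That of Wdr12 to Pes1 was 0.256, 0.271 and 0.301 at pHe6.6 and 0.372, 0.363 and 0.394 at pHe7.4.

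Ppan, whose yeast ortholog takes part in early large subunit assembly, was at 24.4, 29.1 and 23.1 CPM at pHe6.6 and 49.7, 48.0 and 44.1 CPM at pHe7.4 (log2 fold change -0.89, adjusted p = 3.2e-04, edgeR). Nop2, a methyltransferase of the large subunit RNA known as a proliferation antigen, was at 45.2, 46.5 and 43.8 CPM at pHe6.6 and 80.0, 73.0 and 68.0 CPM at pHe7.4 (-0.71, adjusted p = 2.3e-04, edgeR). Both sat well below their pHe7.4 libraries in each of the pHe6.6 libraries. Nip7 fell by 0.50 and the RNA helicase Ddx18 by 0.36 on the log2 scale. A pseudogene of Ddx18 held counts equal to 4.67% of those of Ddx18.

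Nop16 and Mrto4 were close to the threshold. Nop16 was at 25.3, 28.3 and 23.7 CPM at pHe6.6 and 31.6, 35.4 and 29.4 CPM at pHe7.4 (log2 fold change -0.32, adjusted p = 0.028, edgeR). Mrto4, a relative of the ribosomal stalk protein, was at 22.6, 24.5 and 19.4 CPM at pHe6.6 and 27.8, 30.1 and 24.8 CPM at pHe7.4 (-0.31, adjusted p = 0.045, edgeR). Neither passed without pHe6.6 A, pHe6.6 C, pHe7.4 A or pHe7.4 B, with an adjusted p of up to 0.11 for Nop16 and 0.15 for Mrto4 (edgeR). Rrs1, needed in yeast to bring a small RNA into the large subunit, was at 67.7, 59.0 and 60.8 CPM at pHe6.6 and 65.6, 71.8 and 66.3 CPM at pHe7.4. The groups overlapped, and Rrs1 had the smallest change of the 35 genes (-0.12, 95% interval -0.29 to 0.05).

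In the list of other large subunit factors, 33 of 50 fell (66%, beside 25.9% of all genes tested) and 3 rose. Ftsj3, a methyltransferase in ribosomal RNA processing, had the smallest adjusted p of those that fell, at 68.6, 74.3 and 70.1 CPM at pHe6.6 and 109, 106 and 107 CPM at pHe7.4 (log2 fold change -0.60, adjusted p = 1.5e-04, edgeR). Among those that rose, Sbds, which helps to release an anti-association factor from the nearly finished subunit in the cytoplasm, had the smallest adjusted p and was at 83.8, 79.1 and 76.3 CPM at pHe6.6 and 53.7, 56.0 and 52.3 CPM at pHe7.4 (0.56, adjusted p = 3.1e-04, edgeR). Nop53 (0.61) and Nsa2 (0.41), named after their values were seen, work on the large subunit precursor in the nucleus.

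Of 23 subunits of the exosome and of RNase MRP, 12 fell (52.2%, beside 25.9% of all genes tested) and none rose. Rpp25, a protein shared by RNase MRP and RNase P, had the most negative fold change of the pathway lists, with 0.677, 1.06 and 0.963 CPM at pHe6.6 and 7.10, 10.2 and 9.84 CPM at pHe7.4 (log2 fold change -3.31, adjusted p = 4.1e-05, edgeR). Over the 5 lists of other ribosome biogenesis genes, 76 of 139 fell (54.7%), 5 rose and 58 did not pass, with a median log2 fold change of -0.25. The 35 genes thus had a more negative median than these lists.

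**Figure D4:**
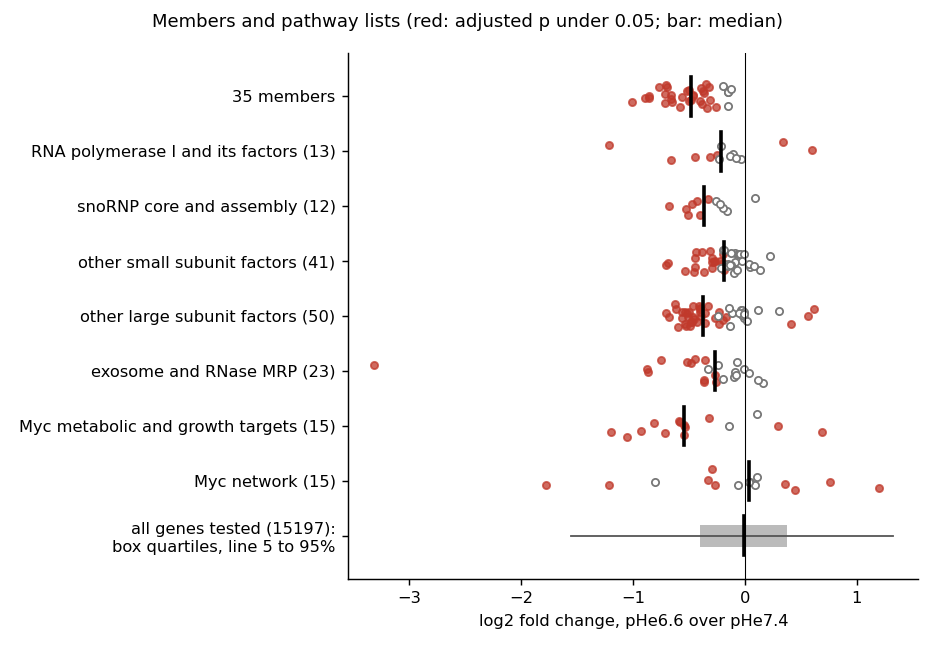
Log2 fold change at pHe6.6 over pHe7.4 (x axis) of the 35 genes and of 7 pathway lists (rows, number tested in brackets), filled red for an adjusted p under 0.05, with the median as a bar and all 15197 genes tested as quartiles. The medians are -0.49 for the 35 genes, between -0.55 and -0.19 for 6 of the lists and 0.04 for the Myc network.

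Other cell types and proliferation moved with the same comparison. Proliferation markers (Mki67, Top2a, Cdk1, Ccnb1, Ccna2 and Pcna) summed to 317, 369 and 294 CPM at pHe6.6 and 772, 787 and 770 CPM at pHe7.4. All 6 fell, with a median log2 fold change of -1.49. Among the pHe6.6 libraries, B had the highest sum of proliferation markers and also of the ribosome biogenesis genes. B was also highest for the ductal, endothelial, and stellate cell and fibroblast sums. The lowest sum was in C for proliferation markers and in A for the ribosome biogenesis genes. The part of proliferation in the lower ribosome biogenesis genes was not tested. For cell types, 2 of 5 ductal, 5 of 8 mesothelial and 5 of 5 endothelial markers fell, and their part was not tested. The ductal sum was 59.4, 255 and 152 CPM in pHe6.6 A, B and C. The 34 genes summed to 1965, 2176 and 2017 CPM in the same libraries. Without pHe6.6 C, which held the B cell markers, 26 of the 35 genes passed the test as lower. The count was 27 without pHe6.6 A and 31 without pHe6.6 B. Over all genes tested, 2939 passed as lower without pHe6.6 C, 3439 without A and 3898 without B, against 3939 with all libraries. The part of the B cells was not tested.

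**Figure D5:**
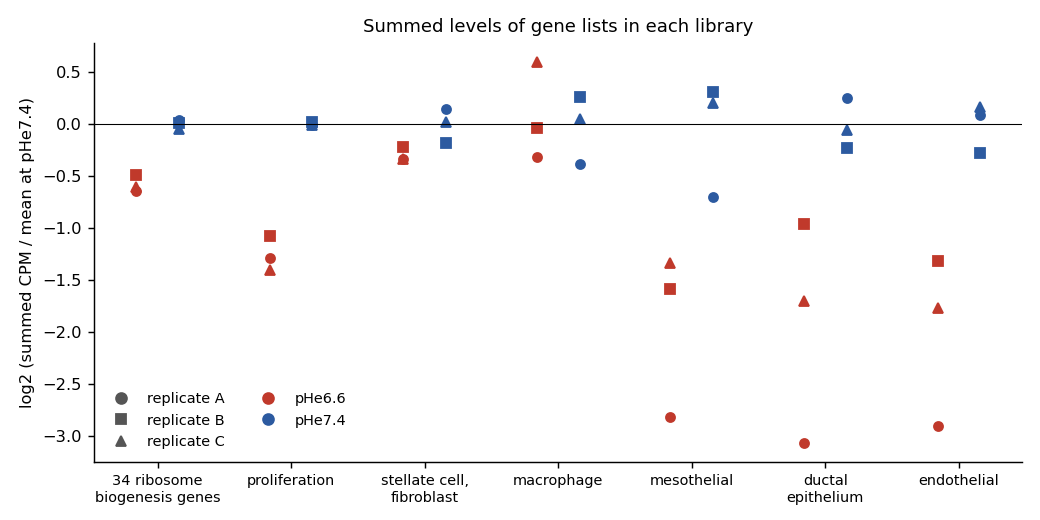
Summed CPM of gene lists in each library, as log2 over the pHe7.4 mean (y axis), for pHe6.6 (left of each list, red) and pHe7.4 (right, blue), with a symbol for each replicate letter. The 3 pHe6.6 sums of the 34 ribosome biogenesis genes (1965 to 2176 CPM) lie close together below pHe7.4, while the ductal, mesothelial and endothelial sums are spread widely at pHe6.6.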

How the data were processed

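RNA of primary mouse PSCs was sequenced by the study after culture for 120 h at either pHe (6.6 or 7.4), in 3 libraries per group (poly(A) enrichment, directional kit, single reads). The authors aligned reads with HISAT2 2.2.1 to mm10 and deposited raw counts per Ensembl gene from featureCounts 2.0.1. The annotation release and the strand setting are not given in the sources used here. The deposited results table from limma 3.50.1 holds fold changes, mean levels, test scores and p-values of the authors' own comparison, of which only gene identifiers and names were used (unit other).

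The 15197 of 49671 genes that reached 0.5 CPM in 2 libraries or more were tested in R 4.3.3 with edgeR 4.0.16 (TMM factors 0.927 to 1.09, quasi-likelihood test with robust dispersions, no covariate) and Benjamini-Hochberg adjustment over all of them. Totals were 28904761 to 38331877 counts, so that 1 count equals 0.0261 to 0.0346 CPM before TMM. Alternatives were upper-quartile factors, DESeq2 1.42.0, limma-voom with sample weights (limma 3.58.1), no filter beyond 1 count, glmTreat, a replicate block and leaving out each library. Fold changes are pHe6.6 over pHe7.4.

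Gene positions, overlapping genes and snoRNAs came from GENCODE (GRCm38), and near-identical pseudogenes from blastn 2.17.0 (at least 97% identity over 75 bases). The 35 genes and all lists were chosen with earlier results of these data known. The text names each of the 35 genes, each gene of the Myc network list, and in the other pathway lists the gene of lowest adjusted p among those that fell and among those that rose. Others were named after their values were seen. Marker lists are given as sums and counts.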

Additional observations from a re-analysis of the deposited data

How the results depend on the processing

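The count of 30 lower genes among the 35 was unchanged under upper-quartile factors, DESeq2, limma-voom, no filter and the replicate block, and was 26 to 31 when 1 library was left out. No member changed sign in any of these. With glmTreat at a log2 threshold of 0.58, the counts that passed were 5 of the 35 genes, 4 of the other ribosome biogenesis genes (81 without the threshold), 6 of the Myc lists (22 without it) and 2333 of all genes (7955 without it), as a test against a larger change must give fewer. Leaving out 1 library gave 65 to 76 of the other ribosome biogenesis genes, 20 to 22 of the Myc lists and 6273 to 7764 of all genes. The log2 fold change of Myc ranged from -0.32 to -0.088 when 1 library was left out, and it passed only without pHe6.6 replicate B (-0.32, adjusted p = 0.030, edgeR). The cause was not tested. In limma-voom its adjusted p was 0.052. Genes near 0 changed sign. Leaving out 1 library gave -0.024 to 0.099 for Mxd4 (below 0 without pHe6.6 replicate A), -0.032 to 0.184 for Mga (below 0 without pHe7.4 replicate B) and -0.109 to 0.155 for Trrap (below 0 without pHe6.6 replicate B or pHe7.4 replicate B), and Trrap was at -0.048 in limma-voom. Replicate letters are shared between the groups, but the labels do not say whether a letter marks a shared isolation. Only 1 of 3 same-letter pairs had a correlation of deviations above 0.1, which cannot decide this with 3 libraries per group. The main test left the libraries unpaired. With the replicate block, 30 of the 35 genes, 73 of the other ribosome biogenesis genes, 22 of the Myc lists and 7408 of all genes were called, and Myc was at -0.20 (adjusted p = 0.27, edgeR). With 3 libraries per group, the 95% intervals of the 5 genes that did not pass leave changes of up to -0.29 to -0.46 on the log2 scale undecided.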

Other observations

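Non-coding genes that host snoRNAs were listed after the values of the 35 genes had been seen. Of 12 tested, 6 fell (50%), 1 rose and 5 did not pass, with a median log2 fold change of -0.25. Over all genes tested, 25.9% fell and 26.4% rose. Snhg5 was at 8.94, 9.95 and 9.30 CPM at pHe6.6 and 19.8, 20.5 and 18.1 CPM at pHe7.4 (log2 fold change -1.05, adjusted p = 1.0e-04, edgeR). Snhg1 (-0.82), Snhg18 (-0.74), Zfas1 (-0.61), Snhg16 (-0.53) and Snhg8 (-0.34) were also lower. Gas5, a host gene whose RNA is known to accumulate when growth stops, was at 107, 100 and 97.4 CPM at pHe6.6 and 101, 103 and 99.3 CPM at pHe7.4, and its log2 fold change of 0.01 did not pass (adjusted p = 0.94, edgeR). Snhg11 rose (1.39), with pHe6.6 B at 17.5 CPM above A at 8.50 and C at 9.81 CPM, against 4.28, 4.99 and 4.37 CPM at pHe7.4.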
